A study of Canis lupus familiaris with 4 samples.

Results

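Among 59081 peaks of accessible chromatin in MDCKII, an epithelial line from canine kidney, 746 were strong in mature monolayers and weakened, yet still open, 2 h after the cells were detached and reseeded. Members were chosen on CPM, a peak's count scaled to a common library total over all peaks, so that a value is a share and shows no change in total accessibility. The conditions were a mature mean of at least 40 CPM, a reseeded mean of at least 5 CPM and a reseeded to mature ratio of at most 0.5, on the 38 numbered chromosomes. These chromosomes held 57672 peaks, of which 4567 reached 40 CPM in mature cells, so the members made up 16.3% of the strong mature peaks. The levels and ratios of members were thereby fixed by the choice, and they are given as a description without a test.

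The reseeded group was MDCKII cells grown for 7 d, detached and reseeded for 2 h (libraries A and B), and the mature group was MDCKII cells grown for 7 d to full maturity (libraries A and B). Sample names of both groups carry the tag wt, both were grown in MEM with FBS and P/S, and the design asks how accessibility differs between the freshly reseeded and the mature state. All results come from a single cell line with 2 libraries in each group. No label says that the libraries of a group were separate cultures, and p-values thus rest on library-to-library spread that could be purely technical. Sample names start with a code that follows the groups, so any batch behind that code cannot be told apart from reseeding. Total counts in peaks were 16906566 and 24015663 in reseeded libraries A and B and 8759513 and 6253706 in mature libraries A and B.

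ATAC-seq marks DNA that the transposase Tn5 can reach, mainly promoters, enhancers and insulators where nucleosomes are displaced by bound proteins. A peak's count follows both how many alleles and cells are open at that place and how open each is, and in a bulk library fewer open cells and a weaker opening in every cell cannot be told apart. MDCK cells are a standard model of epithelial polarity. In culture they build tight junctions, an apical and a basolateral surface and a primary cilium over days of confluence, and detachment takes these contacts apart. The peaks were not placed on genes and no base sequence is shown, since no genome of the files' build, CanFam3.1, was used here.

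The members together took 1.63% and 1.64% of all counts in reseeded libraries A and B, against 5.02% and 5.18% in mature libraries A and B. Counting error was small beside this difference, with 95% Wilson intervals of 1.62% to 1.63% and 1.63% to 1.64% in reseeded libraries and 5.00% to 5.03% and 5.16% to 5.19% in mature libraries. A median member had 18.7 and 18.8 CPM in reseeded libraries A and B, against 54.3 and 52.5 CPM in mature libraries A and B. Both reseeded libraries were thus low and both mature libraries high, and the libraries within a group lay close together. The fewest counts behind any member value were 73 in a reseeded library and 225 in a mature library, far above the floor of 3 counts, which equals 0.177 and 0.125 CPM in reseeded libraries and 0.342 and 0.480 CPM in mature libraries. Intervals and floors cover counting error only.

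Weakening was mostly partial among members, which the reseeded threshold in part ensured. The median ratio of reseeded to mature CPM was 0.348 over the 746 members, with the lowest at 0.0551, the lower quartile at 0.251 and the upper quartile at 0.432. A ratio over 0.375 was found at 327 members (43.8%), a ratio over 0.25 and up to 0.375 at 235 (31.5%), a ratio over 0.125 and up to 0.25 at 149 and a ratio of 0.125 or less at 35 (4.69%). Deeper losses were found at fewer members, which the reseeded threshold of 5 CPM in part built in. At 40 CPM in mature cells it allows no ratio under 0.125, and 482 members were at 40 to 60 CPM. The 47 strong mature peaks that fell under 5 CPM are not members. Members with a ratio of 0.125 or less had a median of 6.04 CPM in reseeded and 63.1 CPM in mature cells, so most of them, 30 of 35, were under 10 CPM after reseeding.

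After reseeding most members ranked as ordinary or above-ordinary peaks rather than as weak ones. All 746 were among the strongest 10% of peaks in mature cells, as the choice at 40 CPM ensures, with a median percentile of 96.2. In reseeded cells their median percentile was 68.7, with the lower quartile at 50.6 and the upper quartile at 80.9. The lowest was 8.47, as the choice at 5 CPM keeps the lowest ranks out. The 47 strong mature peaks under 5 CPM in reseeded cells are thus not counted here. The median of all peaks was 12.9 CPM in reseeded and 12.3 CPM in mature cells, and 182 members (24.4%) were under that reseeded median. At the other end, 67 members (8.98%) were still among the strongest 10% of reseeded peaks and 39 were still at 40 CPM or more.

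**Figure D1:**
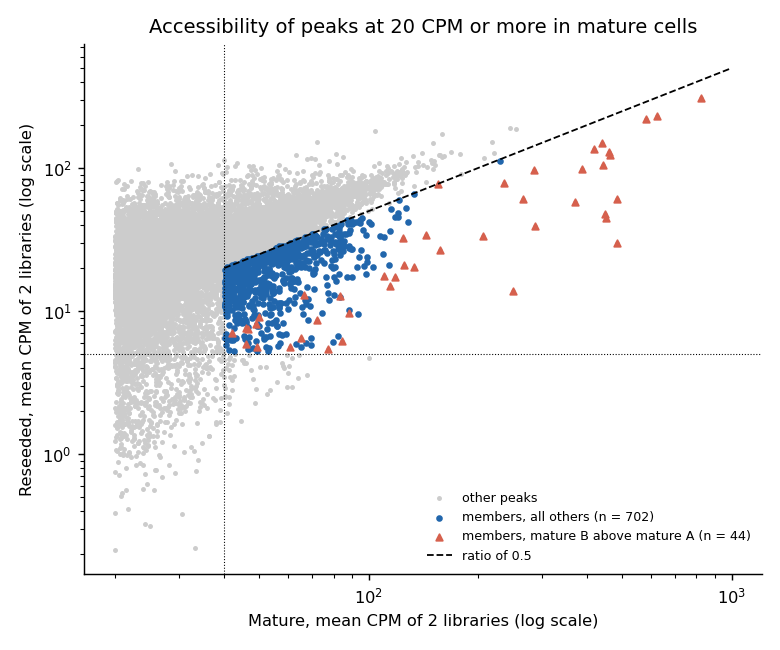
Reseeded against mature mean CPM (n = 2 libraries each, both axes logarithmic) for peaks of numbered chromosomes at 20 CPM or more in mature cells. Dotted lines are the thresholds of 40 and 5 CPM and the dashed line is the ratio of 0.5; blue dots are 702 members without excess mature B and red triangles are 44 members in which mature B exceeded mature A, which include most members over 120 CPM.

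Peaks just inside and just outside each threshold were nearly equal in the value the threshold is set on. Just inside the mature threshold, chr2:77279681-77280181 (CanFam3.1, here and below) had 14.1 and 13.2 CPM in reseeded libraries A and B and 41.1 and 39.0 CPM in mature libraries A and B. Just outside it, chr18:49815446-49815946 had 18.1 and 17.7 CPM in reseeded libraries and 41.1 and 38.9 CPM in mature libraries, a mature mean of 39.98 CPM. Just inside the reseeded threshold, chr14:30680418-30680918 had a reseeded mean of 5.22 CPM and a mature mean of 42.4 CPM, and just outside it chr7:75428148-75428648 had 4.99 and 42.8 CPM. The peaks of such a pair are set apart by the rule alone. At the ratio threshold, chr18:32797879-32798379 stood inside with 28.3 CPM in reseeded and 56.6 CPM in mature cells, and chr30:38050464-38050964 stood outside with 42.8 and 85.6 CPM. The second peaks nearest to the thresholds were chr26:19230152-19230652, chr3:60007638-60008138 and chr5:42078247-42078747 inside and chr2:69528640-69529140, chr8:46387333-46387833 and chr10:23532604-23533104 outside.

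The loss was also computed within the A libraries and within the B libraries. Reseeded A was below mature A and reseeded B below mature B at all 746 members, and the ratio was at most 0.5 in both pairs at 685 (91.8%), counts that the choice on the means of the same libraries largely fixed. The median log2 ratio of reseeded to mature was -1.55 between the A libraries and -1.49 between the B libraries. Across the 746 members, the log2 ratio of the A libraries and that of the B libraries had a Pearson's r of 0.944, a description over peaks of the same 4 libraries. Applied to the A libraries alone the rule picked 818 peaks, with a median ratio of 0.361 in those libraries and of 0.381 in the B libraries, which had no part in that choice. Applied to the B libraries alone it picked 699 peaks, with a median ratio of 0.352 in those and of 0.338 in the A libraries. Both choices shared 613 peaks, 74.9% of the first list and 87.7% of the second.

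In edgeR's quasi-likelihood fit over 59076 tested peaks, all 746 members were tested, and 746 were called lower in reseeded cells and at least 2-fold lower. Among all tested peaks, 41.8% were called lower and 15.0% were called at least 2-fold lower. The choice of members used the same comparison, so nothing is read from these counts. Fitted log2 folds of members, reseeded over mature, ran from -4.21 to -1.03 with a median of -1.57, beside a median of -0.0086 over all tested peaks. They are slightly lower than the log2 ratios of CPM because the fit rescaled the libraries by the trimmed mean of M values (TMM).

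In a small group of members mature B was well above mature A. At 702 members, called ordinary members below, the log2 ratio of mature B to mature A was at most 0.3, running from -0.36 to 0.26 with a median of -0.070, and 11 of them were below -0.3, with mature A the higher library. At the other 44 members mature B exceeded mature A by a log2 ratio of 0.31 to 0.89, with a median of 0.50. Their median log2 ratio of reseeded to mature was -2.24 between the A libraries and -2.92 between the B libraries, against -1.52 and -1.45 at the ordinary members, while the reseeded libraries of the same 44 peaks had a median log2 ratio of B to A of -0.032. The division at 0.3 was chosen after the values were seen, and with 1 pair of mature libraries this difference has no replicate check. Among all 4567 strong mature peaks, 75 had such an excess of mature B, of which 44 were members, 28 had fallen under 5 CPM in reseeded cells and 3 had a ratio over 0.5 and under 0.8. In the opposite direction, 100 of the 4567 had a log2 ratio below -0.3. Among all 57672 peaks on numbered chromosomes, most of them under 40 CPM in mature cells, such an excess of mature B was common. It was found at 12533 of them (21.7%), against 4299 below -0.3. Weak peaks rest on few counts, and the part of counting error in that share was not tested. The share of all peaks is thus no measure for strong peaks. Members, at 5.90%, were above the 1.64% of strong mature peaks. Of the 75 strong peaks with excess mature B, 72 had a ratio of 0.5 or less. The 1264 strong peaks that held their level (the lower of the reseeded and mature means at least 0.8 of the higher) and the 169 with a ratio above that range held 0 peaks with excess mature B.

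**Figure D2:**
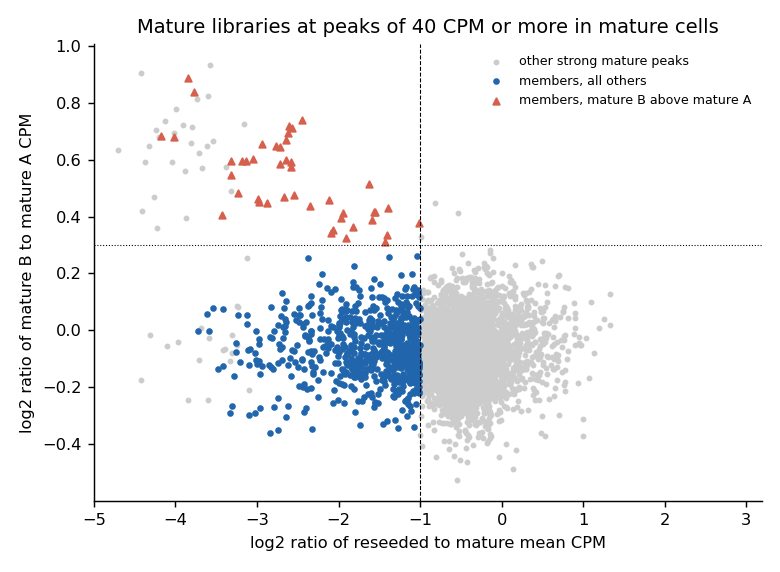
The log2 ratio of mature B to mature A (vertical axis) against the log2 ratio of reseeded to mature mean CPM (horizontal axis) for the 4567 strong mature peaks of numbered chromosomes, 1 point a peak. The dotted line is a log2 ratio of 0.3 and the dashed line the ratio of 0.5; red triangles (44 members) lie above the cloud of blue members, whose median is -0.070.

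The 44 members with excess mature B were stronger, more deeply weakened and more often near chromosome ends than the other 702, as described without a test. Their median level was 28.3 CPM in reseeded and 149.6 CPM in mature cells, against 18.7 and 52.7 CPM at the other members. Their median ratio was 0.163, against 0.361 at the other members. They held 26 of the 33 members over 120 CPM in mature cells and 32 of the 184 members with a ratio of 0.25 or less. Within 100 kb of the first or last peak of their chromosome lay 24 of the 44 (54.5%), against 7 of the 702 others (0.997%) and 0.704% of all peaks on numbered chromosomes. Of the 24, 16 stood together at the end of chromosome 7, and without that place 8 of 28 remained. Among the 47 strong mature peaks under 5 CPM in reseeded cells, 16 (34.0%) lay as close to a chromosome's first or last peak, 12 of them at the same end of chromosome 7. The first or last peak itself was a member on 7 occasions, all of them in this group of 44. Joined where less than 50 kb apart, the 44 peaks made up 18 places on 15 chromosomes.

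The strongest members of all lay at the end of chromosome 7, where signal fell by different amounts along 27.5 kb of close peaks. The strongest, chr7:80967949-80968449, had 288.8 and 331.8 CPM in reseeded libraries A and B and 726.8 and 916.7 CPM in mature libraries A and B. Its log2 fold was -1.44 (SE 0.082), and the counting interval of the pooled ratio was 0.38 to 0.40. Both mature libraries were far above both reseeded libraries, and the gap within the mature pair was wider than that within the reseeded pair. It stood in the site with the most members, 5 peaks over 3278 bp from chr7:80966547 to 80969824, with ratios of 0.332 to 0.486. Its neighbours chr7:80968671-80969171 and chr7:80969324-80969824 had means of 231.5 and 221.5 CPM in reseeded cells, against 622.9 and 580.8 CPM in mature cells. With chr7:80972630-80973130, at 150.3 CPM in reseeded and 439.9 CPM in mature cells, these were the 4 members highest after reseeding.

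Within the last 30 kb of chromosome 7 that held peaks, 32 peaks were listed, of which 17 were members, 12 were strong mature peaks under 5 CPM in reseeded cells, 2 were strong peaks with a ratio over 0.5 and 1 was below 40 CPM in mature cells. The 9 members up to 10 kb from the last peak kept ratios of 0.282 to 0.496, whereas the 8 members farther in had ratios of 0.0616 to 0.164. At chr7:80948853-80949353, 25.0 kb from the last peak, reseeded libraries A and B had 30.2 and 29.3 CPM, against 370.8 and 594.0 CPM in mature libraries A and B, a log2 fold of -4.05 (SE 0.12). Mature B was above mature A in each of the 17 members, by a log2 ratio of 0.26 to 0.89, so the depth of these losses depends on the mature library used, and the part of that disagreement in the result was not tested. The largest disagreement among all members was at chr7:80955293-80955793, with 54.3 CPM in mature A and 100.6 CPM in mature B, where reseeded A and B had 4.73 and 6.08 CPM. Next came chr7:80950490-80950990 with a log2 ratio of mature B to mature A of 0.84, chr32:38809742-38810242, the last peak of its chromosome, with 0.74, and chr7:80955976-80956476 with 0.72.

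**Figure D3:**
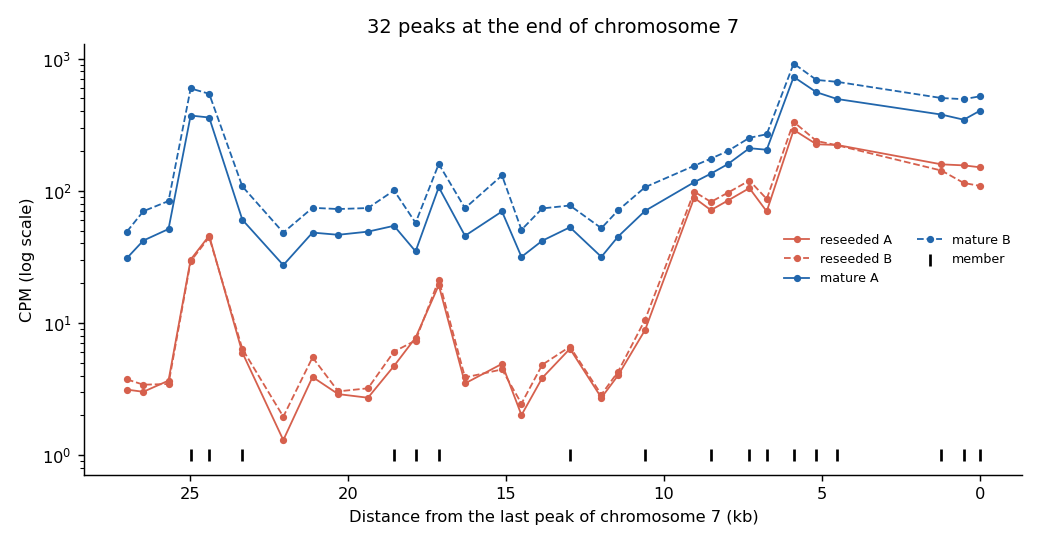
CPM (log scale) in each of the 4 libraries at the 32 peaks of the last 30 kb of chromosome 7, against distance from its last peak; red lines are reseeded A and B, blue lines mature A and B, and ticks at the bottom mark the 17 members. Reseeded levels of members keep ratios of 0.282 to 0.496 up to 10 kb from the last peak and of 0.0616 to 0.164 beyond it, and mature B lies above mature A throughout.

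Similar groups of close and strong members stood inside chromosomes 4 and 1. On chromosome 4, 6 members lay between 10462001 and 10466740. The strongest of them, chr4:10465705-10466205, had 58.6 and 63.9 CPM in reseeded libraries A and B and 407.4 and 560.9 CPM in mature libraries A and B, a log2 fold of -3.01 (SE 0.093). Ratios in this group ran from 0.106 to 0.256. On chromosome 1, 5 members lay between 60596137 and 60599992 with ratios of 0.167 to 0.239, and the strongest, chr1:60596835-60597335, had 106.8 and 104.5 CPM in reseeded libraries and 387.6 and 495.1 CPM in mature libraries. The lowest ratio of all members, 0.0551, was at a lone member with excess mature B, chr5:40772401-40772901, with 14.3 and 13.3 CPM in reseeded libraries A and B and 192.2 and 308.6 CPM in mature libraries A and B. At chr13:63237899-63238399, the only one of the 6 members highest in mature cells that lay outside chromosomes 4 and 7, reseeded A and B had 130.1 and 116.5 CPM and mature A and B had 411.3 and 515.1 CPM. In all these peaks the reseeded libraries were close to each other and mature B was the highest library.

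The ordinary members, without excess mature B, covered a narrower range of mature levels. Their mature levels had a median of 52.7 CPM, a 95th percentile of 89.8 CPM and a maximum of 230.7 CPM, the last of these again at the end of chromosome 7. Leaving that peak aside, the strongest were chosen for naming after their values were seen. At chr9:33271708-33272208, 64.2 and 68.4 CPM in reseeded libraries A and B stood against 141.8 and 125.4 CPM in mature libraries A and B, a log2 fold of -1.06 (SE 0.067). A pair of members 757 bp apart on the same chromosome was chr9:37459078-37459578, with 52.3 and 52.9 CPM in reseeded and 130.4 and 122.8 CPM in mature libraries, and chr9:37459835-37460335, with means of 42.1 CPM in reseeded and 128.2 CPM in mature cells. The groups did not overlap at any of these peaks, which the choice on the ratio largely fixed. All of these peaks, picked as the strongest, kept at least 40 CPM after reseeding, as did 39 of the 746 members.

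Other strong ordinary members behaved alike. At chr17:60349742-60350242 reseeded libraries A and B had 61.0 and 59.0 CPM and mature libraries A and B had 126.0 and 115.9 CPM, a log2 fold of -1.06 (SE 0.065). At chr4:4839940-4840440 reseeded libraries had 45.5 and 45.2 CPM and mature libraries 125.0 and 116.4 CPM, a log2 fold of -1.46 (SE 0.065). Mature A was slightly higher than mature B at each of these, the reverse of the order at the end of chromosome 7.

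The deepest losses among ordinary members left weak but measured peaks. At chr13:2341420-2341920 reseeded libraries A and B had 5.91 and 6.16 CPM and mature libraries A and B had 79.8 and 79.6 CPM, a log2 fold of -3.76 (SE 0.09) and a counting interval of the pooled ratio of 0.066 to 0.087. At chr2:60467902-60468402 reseeded libraries had 7.39 and 6.08 CPM, against 80.9 and 84.1 CPM in mature libraries. At chr17:7082400-7082900 reseeded libraries had 5.50 and 6.04 CPM and mature libraries 69.2 and 69.1 CPM. These peaks, and chr8:72238583-72239083 with means of 5.58 CPM in reseeded and 65.0 CPM in mature cells, had mature libraries close to each other and stood just above the reseeded threshold of 5 CPM.

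**Figure D4:**
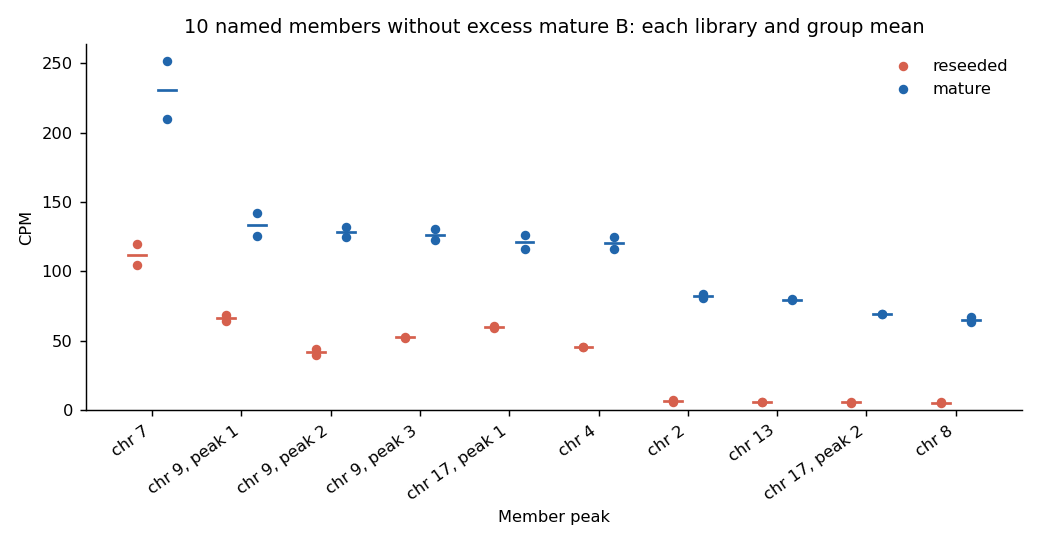
CPM of each library (points) and group mean (bars) at 10 ordinary members, reseeded left of mature, ordered by mature level; chromosomes with more than 1 peak number them in that order. The 6 on the left are the strongest in mature cells, at 42.1 to 112.1 CPM after reseeding, and the 4 on the right have the lowest ratios, at 5.58 to 6.74 CPM after reseeding.

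The share of members among strong peaks differed little with the mature level up to 120 CPM. Of the strong mature peaks at 40 to 60 CPM, 482 of 3059 (15.8%) were members, at 60 to 80 CPM 153 of 983 (15.6%) and at 80 to 120 CPM 78 of 443 (17.6%). At 120 CPM or more the share was 33 of 82 (40.2%), of which 26 had excess mature B. Across members, the log2 mature level and the log2 ratio had a Pearson's r of -0.146, and of 0.014 without the 44 members with excess mature B. The ratio has the mature level as its denominator, so these values are a description.

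The 746 members formed 703 separate sites when peaks with midpoints up to 1 kb apart were joined. A single member made up 669 sites, 28 sites held 2 members, 4 held 3, 1 held 4 and 1 held 5. Other peaks were nevertheless often near, since 302 members (40.5%) had another peak of any kind with its midpoint within 1 kb, against 21.1% of all peaks on numbered chromosomes. This closeness was not set by the choice of members, but strong peaks in general had more close neighbours. The share was 38.4% of the 2341 strong peaks with a ratio over 0.5 and under 0.8, 29.9% of the 1264 that held their level, and 38.6% of the ordinary members alone. Within 500 kb on either side a member had a median of 58.5 other peaks, against 55 for the strong peaks that held their level, 60 for those with a ratio over 0.5 and under 0.8, 58 for all strong peaks and 46 for all peaks.

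Adjoining peaks of a site could lose very different amounts. In 7 of the 34 sites with more than 1 member the ratios differed by more than 2-fold. On chromosome 17, chr17:60554892-60555392 had 5.56 and 6.50 CPM in reseeded libraries A and B and 70.4 and 64.1 CPM in mature libraries A and B. Its neighbour 568 bp away, chr17:60555460-60555960, had 34.7 and 35.5 CPM in reseeded and 90.8 and 85.4 CPM in mature libraries. The first kept 0.0896 of its mature level and the second 0.398. On chromosome 38 a pair 708 bp apart showed the same contrast. The member chr38:1775911-1776411 had means of 7.44 CPM in reseeded and 52.6 CPM in mature cells, and chr38:1775203-1775703 had 19.8 and 41.7 CPM. On chromosome 9 a site of 3 members from 639092 to 641095 had ratios of 0.407, 0.325 and 0.152 in the order of position. These sites were picked for the difference in ratio after the values were seen.

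Peaks close to ordinary members were themselves mostly lower after reseeding, and less so with distance. Around the 702 ordinary members, the 267 peaks within 1 kb that were not themselves ordinary members had a median ratio of 0.527. A ratio of 0.5 or less was found at 125 of them (46.8%). Members with excess mature B were kept among these neighbours, although their ratios are low by choice. At 1 to 5 kb the median ratio was 0.675 over 872 peaks, at 5 to 20 kb 0.738 over 2138 peaks and at 20 to 100 kb 0.835 over 6485 peaks. With ordinary members kept among the neighbours, the medians over the same distances were 0.470, 0.648, 0.706 and 0.820. Neighbours of the same set, near their mature level by choice, were likewise kept around strong peaks that held their level. There the median ratio was 0.810 within 1 kb, 0.843 at 1 to 5 kb, 0.860 at 5 to 20 kb and 0.869 at 20 to 100 kb. The neighbourhoods thus differed most at the shortest distance and were nearly alike beyond 20 kb. The median ratio of all peaks was 1.03, and 14.2% of them had a ratio of 0.5 or less. Neighbours share libraries with the members and the closest may share fragments of one accessible region, and the comparison is the one used to choose members, so no test is given.

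**Figure D5:**
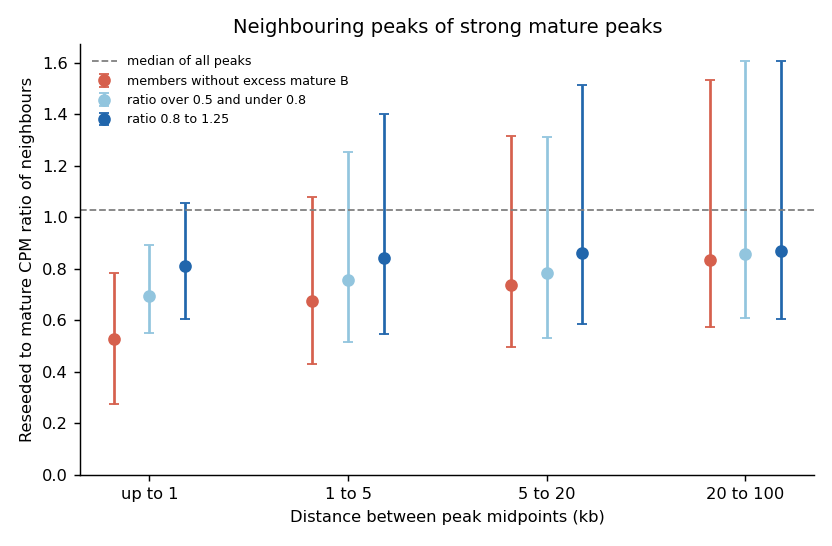
Ratio of reseeded to mature CPM at other peaks (median, bars from lower to upper quartile) by distance from 3 kinds of strong mature peak: ordinary members (red), strong peaks with a ratio over 0.5 and under 0.8 (light blue) and strong peaks that held their level (dark blue). Red leaves out neighbours that are ordinary members and keeps members with excess mature B. Both blue sets keep neighbours of their own set. With ordinary members kept, the red median within 1 kb is 0.470. The dashed line is the median of all peaks, 1.03; medians within 1 kb are 0.527, 0.694 and 0.810.

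The peak next to a member was usually weaker and lost a smaller part of its signal. Of the 746 members, 248 had a peak that was no member within 1 kb, and 210 of these nearest neighbours were under 40 CPM in mature cells. The neighbours had a median of 10.4 CPM in reseeded and 21.8 CPM in mature cells. Their median ratio was 0.512, against 0.374 for the 248 members beside them, and the neighbour had the lower ratio in 76 of the 248 pairs. As neighbours with both a strong mature level and a low ratio are members by choice, this list of neighbours leaves out peaks with low ratios.

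Gains were few at short range from members, as they were from strong peaks that fell less or held their level. Within 1 kb of members, 11 of the 281 peaks that were no members (3.91%) were at least 2-fold higher by ratio. With members kept among the neighbours, the share was 3.07% (11 of 358). It was 1.98% (20 of 1011) around strong peaks with a ratio over 0.5 and under 0.8, and 6.25% (26 of 416) around those that held their level. Peaks of the same set were kept in these 3 shares. They cannot be gains by choice, which lowers the shares. Of all peaks on numbered chromosomes, 27.6% were at least 2-fold higher. Within 5 kb, 82 members had such a peak. Beside chr28:21863671-21864171, which had 23.4 and 26.2 CPM in reseeded libraries A and B and 66.4 and 61.9 CPM in mature libraries A and B, a peak 4.46 kb away at chr28:21868134-21868634 had 87.95 and 87.98 CPM in reseeded libraries and 12.6 and 15.7 CPM in mature libraries. Both peaks had groups that did not overlap, in opposite directions, as the choice of both largely fixed. Beside chr4:59514678-59515178, with means of 27.1 CPM in reseeded and 62.0 CPM in mature cells, the peak chr4:59511295-59511795 had 82.3 and 13.7 CPM. The highest ratio beside a member was 8.54, at chr22:48743792-48744292, with 14.0 CPM in reseeded and 1.63 CPM in mature cells, 1.99 kb from chr22:48745783-48746283 with 15.4 and 53.1 CPM. These examples were chosen for the size of the gain.

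Members were spread over the 38 numbered chromosomes, at 1 to 69 a chromosome. Chromosome 9 had the most, with 69 of its 400 strong mature peaks (17.2%), and chromosome 36 had 1 of 18. Among the 18 chromosomes with at least 100 strong peaks, the share of members ran from 9.80% on chromosome 27 (10 of 102) to 20.7% on chromosome 7 (39 of 188). Without the 17 members with excess mature B on chromosome 7 that share was 12.9%. Higher shares stood on small chromosomes with few strong peaks, at 37.2% on chromosome 31 (16 of 43) and 36.4% on chromosome 24 (12 of 33), and they were 34.1% and 36.4% without members with excess mature B.

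Members were spread over many windows of the genome, and a few windows held many. Of 436 windows of 1 Mb with a member, 281 held 1 and 16 held at least 5, so 281 members were alone in their window and 465 shared it with another member. The most in a window, 19, were at the end of chromosome 7. The most ordinary members were on chromosome 9 from 37000001 to 38000000, where 11 of 26 strong mature peaks were members, with ratios of 0.115 to 0.416, and 57 of all 129 peaks in the window had a ratio of 0.5 or less. The 11 lay within 100.8 kb. The deepest loss among them was at chr9:37553390-37553890, with 9.52 and 10.8 CPM in reseeded libraries A and B and 86.8 and 90.0 CPM in mature libraries A and B, a log2 fold of -3.15 (SE 0.082). At chr9:37531572-37532072 reseeded libraries had 21.1 and 19.7 CPM and mature libraries 102.9 and 102.7 CPM, a log2 fold of -2.38 (SE 0.071). Mature libraries were close at these peaks, and reseeded libraries as well. The window of chromosome 24 from 46000001 to 47000000 had 6 members among 10 strong peaks, with ratios of 0.127 to 0.496, and that of chromosome 17 from 53000001 to 54000000 had 6 of 8, with ratios of 0.0933 to 0.457.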

How the data were processed

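ATAC-seq counts of 4 MDCKII libraries (reseeded A and B, mature A and B) were used as deposited by the authors: raw counts for 59081 peaks of 501 bp, not normalized. Bowtie2, MACS2 and the build CanFam3.1 are named per the submitters' processing notes. Their versions and settings, any shift for Tn5, the choice of peaks and the handling of PCR copies and of reads with several alignments were not given in the sources used here, and the last of these bears on counts in repeats. Chromosomes were taken from the accessions in the peak names. Positions count from 1.

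CPM used column totals. Members were chosen by the rule given above. The members, lists, comparison sets and named peaks were chosen with earlier results of these data known. Named peaks were the 6 members highest in mature and the 4 highest in reseeded cells, the 4 lowest ratios, the 4 largest differences between mature libraries, the largest site and the 2 peaks nearest each threshold on either side; others are said to be chosen after their values were seen. Counts of peaks passing filterByExpr (59076) were fitted with edgeR 4.0.16 in R 4.3.3 (TMM, quasi-likelihood test, no block, Benjamini-Hochberg adjusted p under 0.05); the SE of a log2 fold comes from the fold and its F statistic. The test was also run on simulated counts with few changed peaks and a single dispersion for all peaks. In these data 84.1% of tested peaks were called, so that run does not give error rates for them. Intervals of pooled ratios are exact Clopper-Pearson intervals at 95%. Alternatives were other scalings, no filter, DESeq2 1.42.0, a replicate block, other thresholds and each library left out. Planned motif, sequence and gene list descriptions were not run, as no genome of the build was used here. Tables and figures were made with numpy 2.4.6, scipy 1.17.1, pandas 2.3.3 and matplotlib 3.10.9.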

Additional observations from a re-analysis of the deposited data

How the results depend on the processing

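The number of members depends on the thresholds themselves: it was 1320 with a mature threshold of 30 CPM and 264 with 60 CPM, and 472 with a ratio threshold of 0.4 and 1220 with 0.6. Under the other settings it stayed within 1.5 times 746: 823 with TMM-scaled CPM, 818 with DESeq2 size factors, 750 with upper-quartile factors, 773 with chromosome X, 779 and 647 with reseeded thresholds of 3 and 10 CPM, and 696 to 811 with a library left out. The median ratio of the 746 members was 0.338 with TMM-scaled CPM, 0.346 to 0.353 with a library left out and 0.361 without the 44 members with excess mature B, a setting added after the values were seen, as were the 1-value-a-site setting (0.352) and all others that leave those members out. The median log2 ratio of B to A over members was -0.063 in mature and 0.012 in reseeded libraries with TMM-scaled CPM, and -0.070 and 0.017 without those members. The share of members with another peak nearby was 78.2% within 5 kb and 98.4% within 50 kb. Members formed 686 sites when joined up to 2 kb and 730 up to 600 bp.

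All 746 members were called lower by edgeR under each scaling, filter, threshold and omitted library tried, by DESeq2's Wald test and with the replicate block (746), which called 48979 of all tested peaks, against 49688 without it. Library letters were not taken as pairs: across peaks, the B to A log2 ratios of both groups had an r of 0.030. These calls repeat the comparison used to choose the members, so they are no support. The same holds for the 45 peaks named by rule or by place, which kept direction and call in 360 of 360 alternatives, and with a library left out no log2 fold of theirs moved by more than 0.44. A library left alone in its group was assumed to vary as the other group's pair does. Depth limits the deepest losses most, where reseeded values near 5 CPM rest on as few as 73 counts.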

Other observations

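Chromosome X, left out of the members, held 27 peaks that met the same conditions, 26.0% of its 104 strong mature peaks. Their median level was 17.5 CPM in reseeded and 61.6 CPM in mature cells, and their median ratio was 0.315. The strongest, chrX:47982664-47983164, had 129.7 and 131.6 CPM in reseeded libraries A and B and 307.8 and 279.8 CPM in mature libraries A and B. In 12 of the 27 mature B exceeded mature A by a log2 ratio over 0.3. Of these, 5 lay side by side from chrX:9971886 to 9976117 with ratios of 0.0714 to 0.0932. The median ratio of the other 15 was 0.417.

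In reseeded cells the libraries of a member differed by a log2 ratio over 0.3 in either direction at 18 of 746 members, of which 9 were under 10 CPM after reseeding. The widest was at chr25:20942611-20943111, with 4.32 CPM in reseeded A and 6.95 CPM in reseeded B, against 52.3 and 69.2 CPM in mature libraries A and B.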
